A study of Haemulon flavolineatum and Haemulon macrostomum and Haemulon carbonarium with 36 samples.

Results

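In the livers of 3 grunt species, 29 isogroups were high in the same fish as chymotrypsin B, a digestive protease that the pancreas secretes into the gut. An isogroup is a cluster of assembled transcripts taken as isoforms of 1 gene. Members were chosen from the counts themselves: levels were taken as log2(CPM + 1), where CPM is the count divided by the library's total and multiplied by 1000000, the mean of each species was subtracted, and isogroups were kept with a Pearson correlation (r) of at least 0.7 with chymotrypsin B (isogroup23329) over all 36 fish and a mean of at least 5 CPM. Of 58532 isogroups, 7673 reached 5 CPM and 35 of those reached r = 0.7. Chymotrypsin B itself and 5 other isogroups named as digestive enzymes were then left out, which left the 29. Since the covariation inside species chose the members, it is described below without a test. Subtracting the species means kept differences between species out of r, and those differences were tested. The minimum of 5 CPM does use the levels of all species: collectrin (isogroup72166, mean 0.39 CPM in *H. carbonarium*) and isogroup14138 (3.99 CPM in *H. macrostomum*) passed it only through the species where they were higher, so their species differences are given as values without a p. Where they passed the test they are counted, but the call is not read as a result.

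TagSeq libraries, which hold 1 tag per messenger RNA, taken close to its 3′ end, were made from livers of wild *H. carbonarium* (HCAR, 8 fish), *H. flavolineatum* (HFL, 17 fish) and *H. macrostomum* (HMCR, 11 fish), with 1 library per fish. The labels set the groups apart by species alone and give no sex, age or treatment. All fish were speared on the reefs of the same archipelago. The paper states that most *H. macrostomum* came from outer reefs with stronger currents and waves than the other species. In contrasts with *H. macrostomum*, species and collection site can therefore not be told apart. The labels give neither site nor collection day. Fish are called here by the species code and their number in the labels. Total counts ran from 578011 to 3252882 per fish. Named hepatocyte proteins such as apolipoproteins (47 isogroups, of which 26 had at least 5 CPM) had median summed levels of 78440 CPM in *H. carbonarium*, 55937 CPM in *H. flavolineatum* and 83635 CPM in *H. macrostomum*. The lowest fish of these species had 54681, 11067 and 71748 CPM. Reads of all species were mapped to the transcriptome of *H. macrostomum*, so a species difference in level and one in mapping cannot be told apart.

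Chymotrypsin, trypsin, elastase and the carboxypeptidases are made in acinar cells of the exocrine pancreas as inactive precursors, stored in granules and released into the intestine, where they cut dietary protein. Amylase, from the same cells, splits starch. In many bony fishes acinar tissue is not a compact organ but is scattered along the gut and, in some, around the portal vessels inside the liver, which is then called a hepatopancreas. In a bulk sample, more cells of a type and more RNA per cell cannot be told apart.

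Of the 29 isogroups, 3 had a protein name in the annotation used here, of which only a part was at hand, and 26 had none. The 3 names are metalloendopeptidase (isogroup4243), a broad name for metal-dependent enzymes that cut inside protein chains, carboxylic ester hydrolase (isogroup3349), a broad name for enzymes that split ester bonds, and collectrin (isogroup72166), a membrane protein that in mammals helps carry amino acid transporters to the cell surface. All 3 names came from the study's table of isogroups that differed between species on these same fish, so a species difference of a named member is not independent of its having a name. Digestive enzymes among the 26 could not have been left out by name. The 6 named enzymes with r of at least 0.7, chymotrypsin B included, and the members are therefore described side by side.

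The members together held a large and variable share of the liver libraries. In *H. carbonarium* they took 5.49% of counts in the lowest fish (HCAR5), 8.77% at the median and 25.5% in the highest (HCAR1). In *H. flavolineatum* the share ran from 1.71% (HFL12) over a median of 7.15% to 14.3% (HFL5). *H. macrostomum* had the lowest shares, from 0.503% (HMCR5) over a median of 4.14% to 9.31% (HMCR2). The shares of the 3 species overlapped, and the gap between the lowest and the highest fish of a species was wider than the gaps between the species medians. Chymotrypsin B ran from 1679 to 5142 CPM in *H. carbonarium* (median 2666 CPM), from 222 to 4503 CPM in *H. flavolineatum* (median 1283 CPM) and from 39.8 to 737 CPM in *H. macrostomum* (median 219 CPM). Its highest fish thus had 3.06, 20.2 and 18.5 times the level of its lowest in the 3 species.

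**Figure D1:**
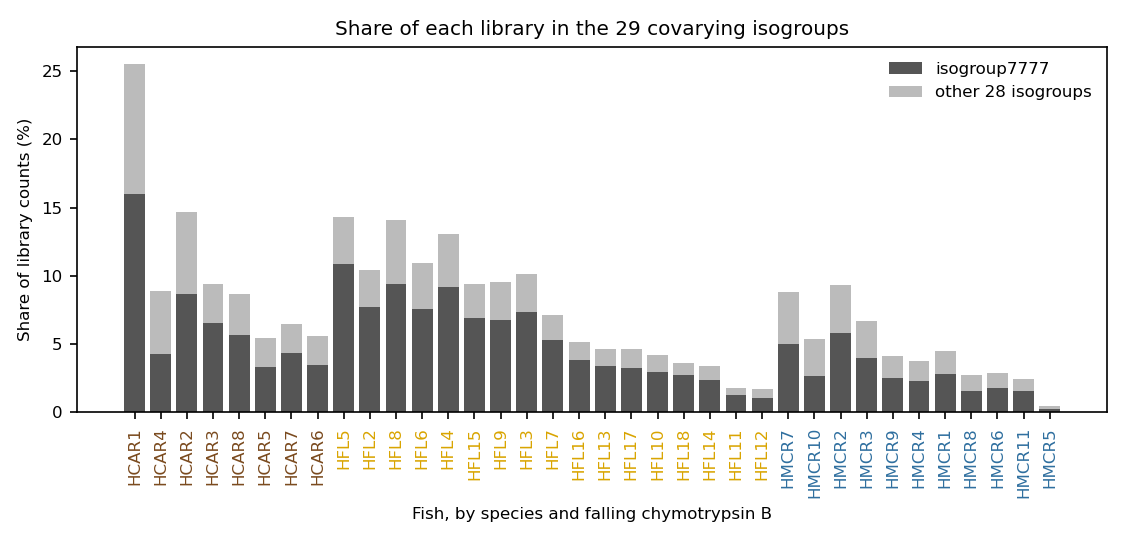
Share of each library's counts (y axis, %) in isogroup7777 (dark) and in the other 28 isogroups (light), 1 bar per fish, ordered within each species by falling chymotrypsin B (HCAR, *H. carbonarium*; HFL, *H. flavolineatum*; HMCR, *H. macrostomum*). The share is mostly larger on the left of each species than on its right, and the extremes are 25.5% in HCAR1 and 0.503% in HMCR5.

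Most of that share came from isogroup7777, which has no name here and had the 2nd highest mean of all isogroups, at 48531 CPM. Its levels in *H. carbonarium* were 33101 CPM in the lowest fish, 49865 CPM at the median and 159774 CPM in the highest, HCAR1. In *H. flavolineatum* they were 10820, 52888 and 108569 CPM, and in *H. macrostomum* 2728, 25036 and 58055 CPM. The 3 ranges overlapped, and HMCR5 stood lowest of all 36 fish. It was the most abundant isogroup of the library in 2 fish, was among the 10 most abundant in 35, and ranked 43rd in the remaining fish.

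The next members by mean level were isogroup17253 (9841 CPM), isogroup6793 (4784 CPM), isogroup54385 (3909 CPM) and isogroup4157 (2382 CPM), all without a name. These 5 were the members above 1000 CPM. Another 14 had means between 100 and 1000 CPM, among them isogroup4664 (829 CPM), isogroup1552 (420 CPM), isogroup6737 (325 CPM) and metalloendopeptidase (162 CPM). The last 10 were below 100 CPM, with carboxylic ester hydrolase at 86.3 CPM, collectrin at 10.7 CPM and isogroup14138 lowest at 6.66 CPM. For comparison, the named enzymes had means of 3048 CPM (carboxypeptidase B, isogroup1643), 1976 CPM (elastase family member 2A, isogroup4491), 1443 CPM (chymotrypsin B), 411 CPM (alpha-amylase, isogroup41616), 71.1 CPM (elastase family member 1, isogroup7069) and 7.70 CPM (chymotrypsinogen 1, isogroup23682). A tag stands for 1 transcript whatever its length, so CPM needs no scaling by length. Isogroups that lack the 3′ end or share reads with a copy may still be counted short or long, so this order of levels is approximate.

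The same few fish were extreme for most members. HMCR5 was the lowest *H. macrostomum* for 28 of the 29 and HMCR2 the highest for 16. HCAR1 was the highest *H. carbonarium* for 19 and HCAR5 the lowest for 15. Among *H. flavolineatum*, HFL8 was highest for 10 members and HFL5 for 9, while HFL11 was lowest for 18 and HFL12 for 8. HCAR1 had the smallest library of its species (722995 counts). Across all 36 fish the total count and the members' mean level had r = 0.06 as a description. Within *H. carbonarium* that value was -0.72 over 8 fish, and within *H. flavolineatum* and *H. macrostomum* it was 0.32 and -0.11. The part of depth in the members' levels was not tested.

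**Figure D2:**
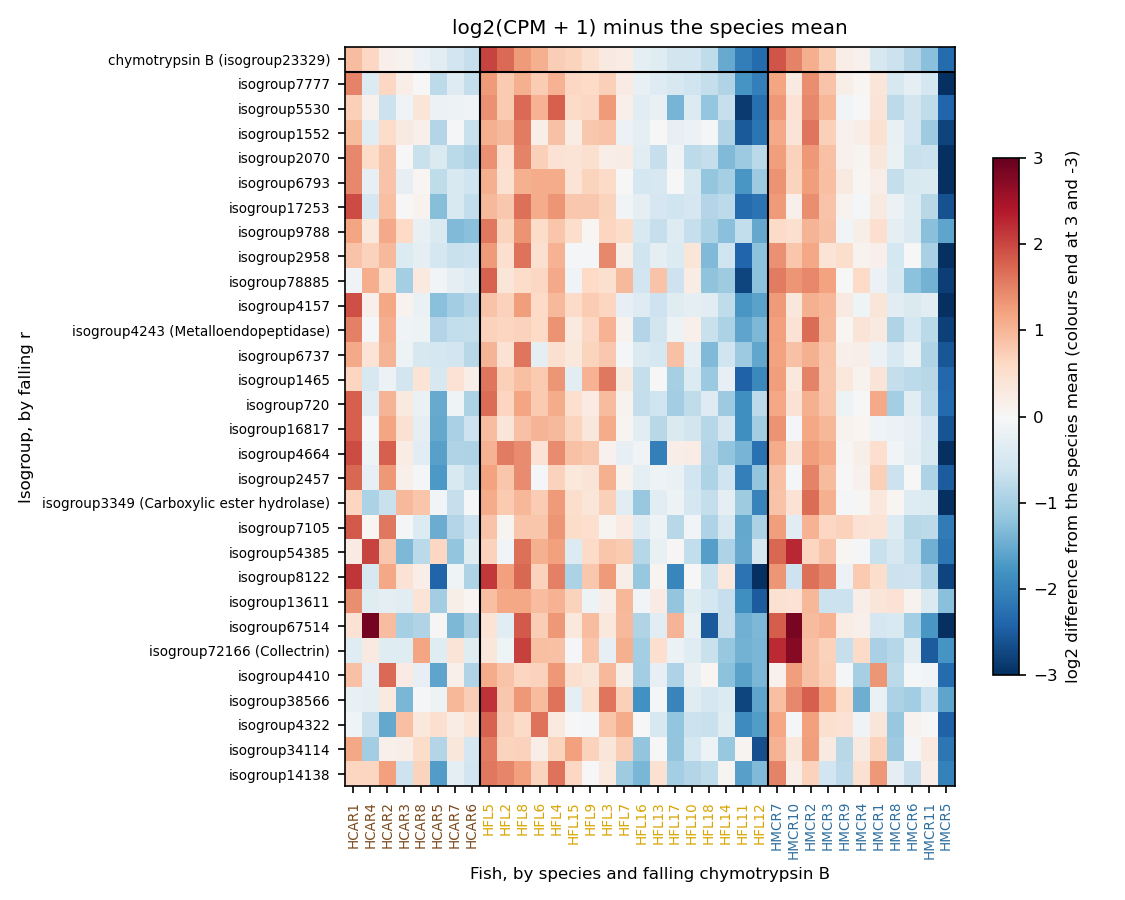
Level of chymotrypsin B (top row) and the 29 isogroups (rows, by falling r) in each fish (columns, by species and falling chymotrypsin B), as log2(CPM + 1) minus the species mean; red is above and blue below that mean. HMCR5, HFL11 and HFL12 are blue in nearly all rows, and HCAR1 is red in most.

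The r values with chymotrypsin B that chose the members had a median of 0.81. They were highest for isogroup7777 (0.895), isogroup5530 (0.877) and isogroup1552 (0.877). Just inside the threshold lay isogroup4322 (0.718), isogroup34114 (0.709) and isogroup14138 (0.702), and just outside it isogroup30618 (0.690), isogroup57567 (0.687) and trypsinogen H2_3a4 (0.685), the precursor of trypsin. Over all 7673 isogroups the median r was 0.09, and no isogroup had r of -0.7 or below. The slope on chymotrypsin B over all 36 fish ran from 0.60 to 0.93 with a median of 0.75. It differed inside the species: the median was 1.06 in *H. carbonarium*, where 15 members had slopes over 1 (isogroup4157 1.67), 0.68 in *H. flavolineatum*, where none did, and 0.80 in *H. macrostomum*, where 4 did. With each fish left out in turn, 24 members stayed at or above 0.7 every time. The other 5 (isogroup4410, isogroup38566, isogroup4322, isogroup34114 and isogroup14138) dropped below it without some fish, with a lowest value of 0.65.

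Covariation was not alike in the 3 species. In *H. flavolineatum* the members' r had a median of 0.86, and 28 of 29 reached 0.7. In *H. macrostomum* the median was also 0.86, with 26 at 0.7 or above. In *H. carbonarium*, with 8 fish and the narrowest range of chymotrypsin B, the median was 0.69 and 11 members reached 0.7. There 4 members had negative values: isogroup38566 (-0.53), isogroup4322 (-0.43), collectrin (-0.14, from 5 counts in all) and isogroup1465 (-0.05). In all, 11 members reached 0.7 in each species taken alone, among them isogroup7777, isogroup6793, isogroup4157 and metalloendopeptidase. These differences between species were not tested.

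**Figure D3:**
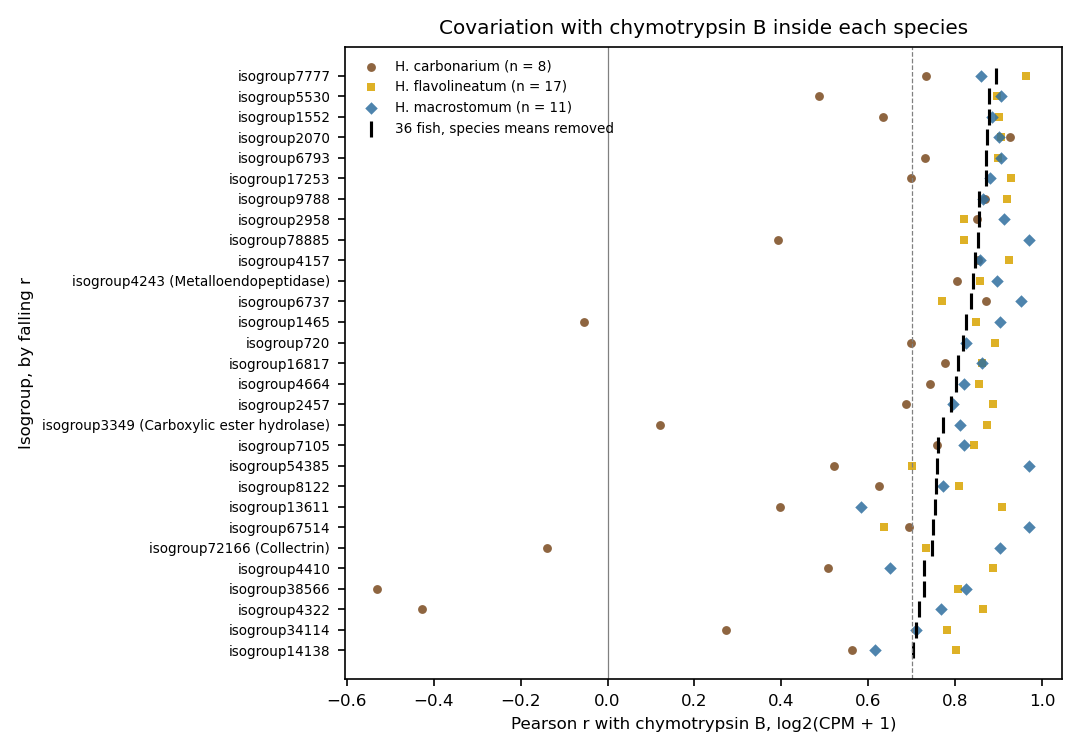
Pearson r with chymotrypsin B (x axis) of each of the 29 isogroups (rows) within *H. carbonarium* (circles, 8 fish), *H. flavolineatum* (squares, 17 fish) and *H. macrostomum* (diamonds, 11 fish), with the r over all 36 fish that chose them (black ticks) and the threshold of 0.7 (dashed). Circles reach from -0.53 to 0.93, while squares and diamonds stay above 0.58.

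The members also varied with each other. Over their 406 pairs r had a median of 0.76, a lowest value of 0.35 and a highest of 0.97, the last between isogroup7777 and isogroup17253, the 2 most abundant members. Carboxypeptidase B, which trims basic residues from the ends of digested peptides, was closest to 17 of the members among the 8 named enzymes compared, and its median r with all 29 was 0.87. For chymotrypsin B, whose own r values chose the members, these numbers were 7 members and 0.81. Alpha-amylase was closest to isogroup7777 (0.93) and carboxylic ester hydrolase (0.79). These are descriptions over 36 fish, whose libraries, depth and composition the points share.

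Clustering set a small group of members apart. Isogroup54385 and isogroup67514 had r = 0.95 with each other but medians of 0.63 and 0.64 with the other members, and average-linkage clustering into 2 groups put them and collectrin apart from the other 26. Medians as low also occurred among those 26, at 0.62 for isogroup4322 and 0.64 for isogroup38566. Isogroup54385 ran from 2257 to 23239 CPM in *H. carbonarium* (median 5642 CPM), from 701 to 6884 CPM in *H. flavolineatum* (median 2068 CPM) and from 466 to 10067 CPM in *H. macrostomum* (median 2024 CPM). Isogroup67514 ran from 56.8 to 1083 CPM (median 114 CPM), from 7.98 to 184 CPM (median 62.8 CPM) and from 5.46 to 452 CPM (median 69.7 CPM). Both were highest in HCAR4, where most members were highest in HCAR1. In *H. macrostomum* they followed chymotrypsin B closely (r = 0.97 for each), and HFL8, their highest *H. flavolineatum*, was the highest for other members too. The named enzyme closest to both was the trypsin TRY1 (isogroup69011, r = 0.88 and 0.92), followed by elastase family member 1 (r = 0.86 and 0.82), whose highest *H. carbonarium* was also HCAR4 (738 CPM). Collectrin was also highest in HFL8 (35.9 CPM) and HMCR10 (75.0 CPM), and its r with elastase family member 1 was 0.73 against 0.75 with chymotrypsin B.

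**Figure D4:**
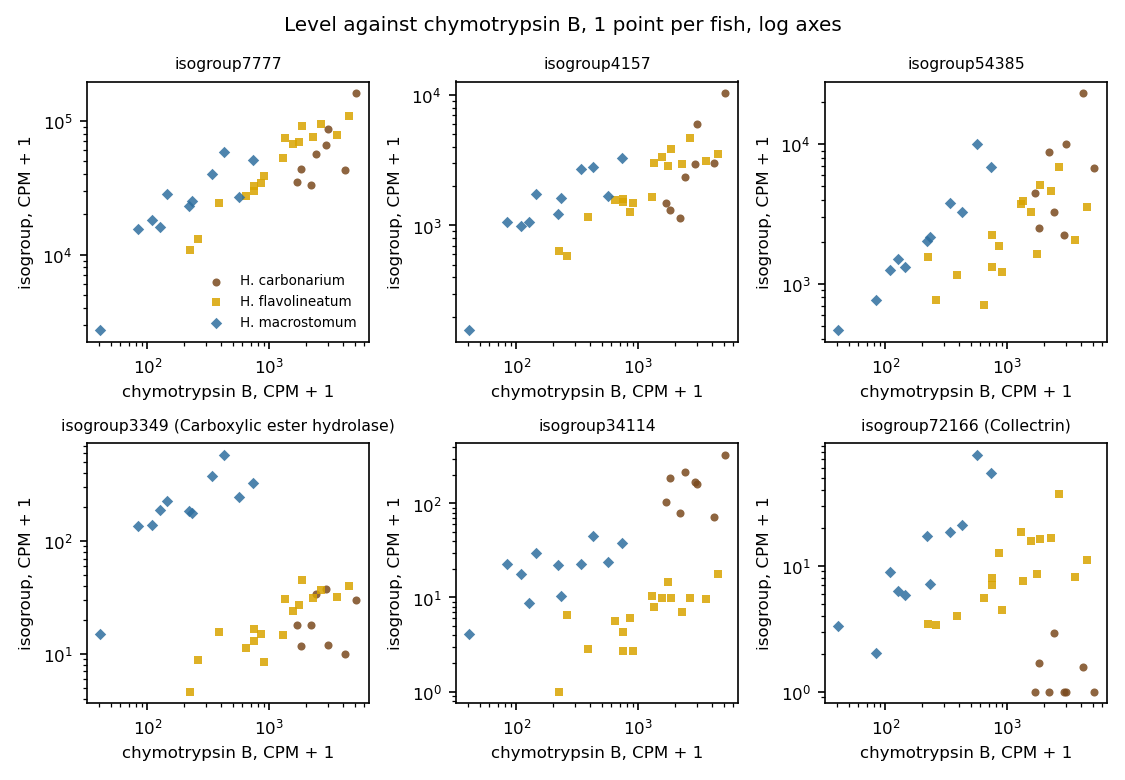
Level of 6 of the isogroups (y axes, CPM + 1, log scale) against chymotrypsin B (x axes, CPM + 1, log scale), 1 point per fish, with *H. carbonarium* as brown circles, *H. flavolineatum* as yellow squares and *H. macrostomum* as blue diamonds. For isogroup7777 and isogroup4157 the levels of the species overlap with the diamonds to the left, for carboxylic ester hydrolase the diamonds other than HMCR5 lie above the rest, for isogroup34114 the circles do, and for collectrin the circles lie at or near 0 CPM.

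Lists of named proteins of other cell types and functions held no isogroup with r of at least 0.7. Of all 7673 isogroups 0.456% reached it, so a count of 0 in lists of this size does not set them apart from the rest. Among exocrine pancreas enzymes, leaving out chymotrypsin B itself, 5 of 7 reached it, and their median r was 0.78; these are the values the rule read. The 2 below it were trypsinogen H2_3a4 and TRY1 (0.669). None of 26 hepatocyte isogroups reached it (median r 0.21), nor did any of 16 for entry into, folding in and export from the endoplasmic reticulum (0.11), 21 ribosomal proteins and translation factors (0.21), or 10 leukocyte isogroups (0.20). Only 1 erythrocyte and 1 intestinal isogroup were measured at 5 CPM (r = 0.11 and 0.27). No isogroup carried the name of an acinar granule protein or an islet hormone in the annotation at hand, so those lists gave no value.

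Differences between the species' mean levels asked whether the members also set the species apart. Each was tested with edgeR's quasi-likelihood test over the 8598 isogroups that passed the count filter, with Benjamini-Hochberg adjustment and a threshold of 0.01. All 29 members passed that filter. They were chosen for varying together, so counts of positive members in a contrast are not counts of independent observations. P-values set the difference between species means against the spread between wild fish of a species.

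Between *H. carbonarium* and *H. flavolineatum*, 4 members were higher in *H. carbonarium*, which is 13.8% of the members beside 7.85% of all isogroups tested. The 1 member called lower (beside 6.55%) was collectrin, whose call is not read as a result. With it the calls numbered 5, or 17.2% of the members beside 14.4% of all isogroups. The median log2 fold change was 0.77 over the members and -0.05 over all isogroups, and 20 of 29 were positive. Without HCAR1 the members' median was 0.21 and 16 were positive. Isogroup34114 differed most. It measured 70.5, 165 and 328 CPM in the lowest, median and highest *H. carbonarium* and 0, 6.05 and 16.8 CPM in *H. flavolineatum*, with no overlap of the ranges, a separation in this direction that 1.33% of isogroups showed. Its log2 fold change was 4.69 ± 0.37 (SE; edgeR adjusted p = 5.3e-13).

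The 1 lower member was collectrin, whose choice through its level in the other species bears on this direction. In *H. carbonarium* 5 of 8 fish had no count of it and the highest, HCAR8, had 1.91 CPM. In *H. flavolineatum* it measured 2.36, 7.16 and 35.9 CPM in the lowest, median and highest fish, again without overlap (0.733% of isogroups in this direction). Its log2 fold change was -4.30 ± 0.82, resting on 5 counts against 248. Isogroup67514 (2.02 ± 0.51), isogroup54385 (1.57 ± 0.43) and metalloendopeptidase (1.49 ± 0.38) were higher in *H. carbonarium* with overlapping ranges. Metalloendopeptidase measured 132, 222 and 700 CPM in *H. carbonarium* and 30.6, 103 and 238 CPM in *H. flavolineatum*. Isogroup7777 had a log2 fold change of 0.41 ± 0.38 and did not pass (edgeR adjusted p = 0.48).

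The smaller differences rested on few fish. Without HCAR4 the count of 5 became 3, beside 1104 of 8749 isogroups, since isogroup54385 and isogroup67514 no longer passed. Isogroup54385 also failed without HCAR5, and metalloendopeptidase failed without HCAR1. Without the 6 *H. flavolineatum* with over 10000 CPM of vitellogenin, the egg yolk precursor, only isogroup34114 and collectrin passed, beside 12.4% of all isogroups (7.17% higher and 5.22% lower). The call of collectrin is again not read as a result.

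*H. carbonarium* against *H. macrostomum* again gave 5 of 29 members (17.2%, beside 13.5% of all isogroups tested), of which 3 were higher (10.3%, background 6.08%) and 2 lower (6.90%, background 7.41%) in *H. carbonarium*. Of the 2 lower, 1 was collectrin, whose call is not read as a result. The median log2 fold change was 1.13 over the members and 0.00 over all isogroups, and 27 of 29 were positive. Without HCAR1 the members' median was 0.52. Carboxylic ester hydrolase was among the lower ones. It measured 8.95, 17.05 and 36.3 CPM in the lowest, median and highest *H. carbonarium* and 14.04, 188 and 581 CPM in *H. macrostomum*. Only HMCR5 lay within the range of *H. carbonarium*, and the log2 fold change was -3.51 ± 0.48 (edgeR adjusted p = 5.5e-07).

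The other lower member was collectrin, with 1.04, 7.99 and 75.0 CPM in the lowest, median and highest *H. macrostomum* and a log2 fold change of -5.27 ± 0.83, with the same limit from its choice. HMCR11, its lowest *H. macrostomum*, lay within the range of *H. carbonarium*. Isogroup34114 was higher in *H. carbonarium* by 2.99 ± 0.40, with 3.12, 21.6 and 43.8 CPM in *H. macrostomum* and no overlap (1.29% of isogroups in this direction). Isogroup4664 (1.81 ± 0.49) and isogroup16817 (1.81 ± 0.42) were also higher. Both failed to pass without HCAR1, which left 3 calls, beside 1149 of 9231 isogroups. Isogroup4664 further failed without HCAR2, HMCR9 or HMCR11. Without HMCR2 the calls numbered 9, beside 1179 of 8767 isogroups. Isogroup7777 had a log2 fold change of 1.31 ± 0.41 that did not pass (edgeR adjusted p = 0.018).

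Between *H. flavolineatum* and *H. macrostomum*, 2 members passed, both lower in *H. flavolineatum*. They are 6.90% of the members, beside 26.0% of all isogroups tested and 14.4% lower. Carboxylic ester hydrolase measured 3.63, 15.6 and 43.8 CPM in the lowest, median and highest *H. flavolineatum*, with a log2 fold change of -3.53 ± 0.36 (edgeR adjusted p = 2e-10). HMCR5, at 14.04 CPM, was the *H. macrostomum* that lay inside that range. Isogroup34114 had a log2 fold change of -1.69 ± 0.35 (edgeR adjusted p = 0.00016). The median over the members was 0.33, against 0.04 over all isogroups, and isogroup7777 was at 0.91 ± 0.36 (edgeR adjusted p = 0.042). The count depended on single fish. It was 4 without HCAR1, 6 without HFL11, 5 without HFL17 and 6 without HMCR2. Over all isogroups the same fits called 2400 of 9231, 2205 of 8727, 2240 of 8694 and 2225 of 8767. The 3 contrasts share fish, so that their values are given side by side only.

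**Figure D5:**
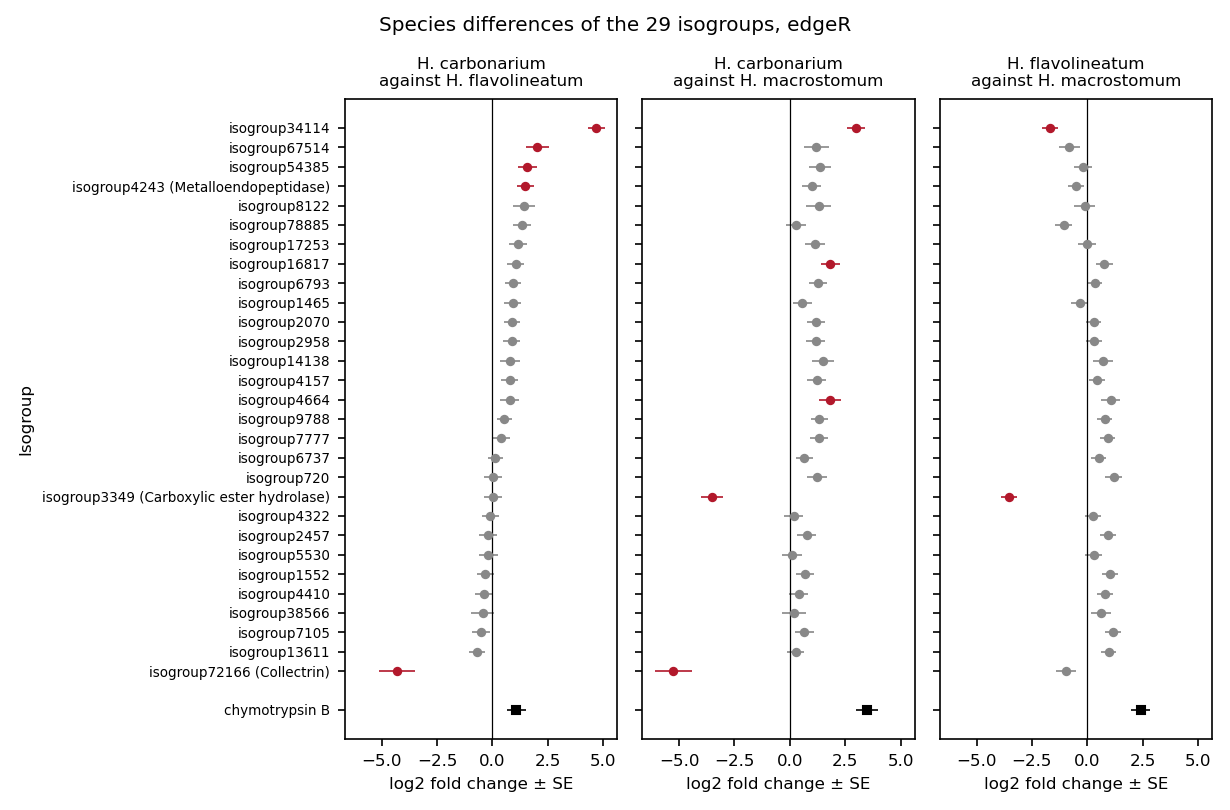
Log2 fold change (x axes) with its SE of the 29 isogroups (circles, ordered by the first contrast) and chymotrypsin B (black squares) in the 3 species contrasts, with isogroups past an adjusted p of 0.01 in red. Chymotrypsin B lies at 1.08, 3.48 and 2.40, to the right of most members in the 2nd and 3rd panels.

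Chymotrypsin B itself had log2 fold changes of 1.08 ± 0.42 (*H. carbonarium* against *H. flavolineatum*, edgeR adjusted p = 0.057), 3.48 ± 0.49 (*H. carbonarium* against *H. macrostomum*, 8.9e-07) and 2.40 ± 0.43 (*H. flavolineatum* against *H. macrostomum*, 2.4e-05). Of the 8 named exocrine enzymes of at least 5 CPM, 5, 8 and 3 were higher in the first species of these contrasts and none was lower, beside backgrounds of 7.85%, 6.08% and 11.6% higher. For 6 of the 8, the only name at hand came from the study's table of species differences, so these counts are not independent of the naming. Chymotrypsinogen 1 (mean 2.81 CPM in *H. macrostomum*) reached the minimum of 5 CPM only through the other species. Its call against *H. macrostomum* is counted but not read as a result. An alpha-amylase fragment of the same list below that minimum (isogroup80829, mean 3.43 CPM) went the other way in the first contrast, with log2 fold changes of -3.63 ± 0.55 (edgeR adjusted p = 3e-06), 1.68 ± 0.83 (0.15) and 5.31 ± 0.57 (6.9e-10). Carboxypeptidase B, the enzyme closest to most members, had 1.34 ± 0.37, 1.67 ± 0.42 and 0.33 ± 0.35, and alpha-amylase 0.71 ± 0.39, 2.26 ± 0.44 and 1.56 ± 0.38. The trypsinogen H2_3a4 had 1.67 ± 0.40, 8.97 ± 0.60 and 7.30 ± 0.55, with a median of 10.8 CPM in *H. macrostomum* against 6576 CPM in *H. carbonarium* and 1749 CPM in *H. flavolineatum*.

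The ratio of isogroup7777 to chymotrypsin B was 10.2, 22.9 and 31.1 in the lowest, median and highest *H. carbonarium*. It was 21.6, 42.1 and 62.7 in *H. flavolineatum* and 47.5, 118 and 199 in *H. macrostomum*. The range of *H. macrostomum* overlapped that of *H. flavolineatum* but not that of *H. carbonarium*. For all 29 members the median ratio was highest in *H. macrostomum*. The same count over all isogroups is not given here, so it does not set the members apart. These ratios move with the lower chymotrypsin B of *H. macrostomum*, and their differences were not tested.

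The fish with high vitellogenin were on the low side of the members' range. The 6 *H. flavolineatum* with over 10000 CPM of vitellogenin had member shares of 1.71%, 3.94% and 10.2% at the lowest, median and highest. The other 11 had 1.77%, 9.55% and 14.3%, so the ranges overlapped. Chymotrypsin B had medians of 696 CPM in the former and 1746 CPM in the latter. All of the 6 but HFL3 (10.2%) had fish numbers of 10 or more, a bound that no label sets. Low shares also occurred at such numbers without high vitellogenin (HFL11 1.77%, HFL16 5.16%, HFL17 4.67%), though HFL15 had 9.40%. Vitellogenin and fish number thus went together, and their parts were not tested. The 6 fish were set apart by vitellogenin, not by the labels, and their difference from the others was not tested. The rule applied without them gave 27 isogroups, 26 of them among the 29.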

How the data were processed

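The values are counts per isogroup that the authors deposited: reads of low quality and PCR duplicates were removed, single-end reads of all species were mapped with Bowtie2 (version not given in the sources used here) to the *H. macrostomum* transcriptome with up to 5 matches per read, and reads were counted without normalization. Isogroups with near-identical copies may therefore share reads. No column was left out.

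Shares of a library are counts of the total, and exact (Clopper-Pearson) 95% intervals, which cover counting error only, lay within 0.101 percentage points of each share. For the tests, isogroups were kept by filterByExpr, scaled by TMM and fitted in edgeR 4.0.16 (R 4.3.3) with species as the only term over all 36 fish; each SE was taken as the absolute log2 fold change over the square root of F. Members called have a Benjamini-Hochberg adjusted p under 0.01 over all isogroups tested. Correlations used Python 3.11.15 with pandas 2.3.3.

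Protein names came from the study's table of species differences (1763 isogroups) and from the parts at hand of its UniProt and TrEMBL annotations. Isogroups named in the text are the named members, the 8 most abundant unnamed ones, the 4 highest and 4 lowest called per contrast, the named digestive enzymes, and members with extreme r. Members and lists were chosen with earlier results of these data known. No sequence of the members was used here. Alternatives were DESeq2 1.42.0, other scalings, filters, thresholds, fish and covariates, and other anchors of the rule.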

Additional observations from a re-analysis of the deposited data

Results flagged for a closer look

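Groups of 4 to 10 fish were searched for a highest or lowest value whose gap to the next fish is large beside the whole range (Dixon's ratio above its 95% critical value), which applies to *H. carbonarium* alone. Chance gives about 1 in 20 such groups where values are normally distributed. The ratio was taken on CPM and percent, not on the log2 scale used above. On that raw scale high values lie further apart, so the rate of 1 in 20 need not hold. In all, 31 quantities that are not independent were searched, and 7 stood out, each by its highest value. HCAR1 was highest in 4 of them: the members' share of the library (25.5%, next 14.7%), isogroup7777 (159774 CPM, next 86860 CPM), isogroup17253 (48599 CPM, next 23188 CPM) and isogroup13611 (44.3 CPM, next 21.7 CPM). HCAR4 was highest in isogroup54385 (23239 CPM, next 10043 CPM) and isogroup67514 (1083 CPM, next 280 CPM). Collectrin in HCAR8 (1.91 CPM, next 0.68 CPM) stood out on a handful of counts. Whether these fish differ in tissue sampled, physiology or library was not tested.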

How the results depend on the processing

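The number of isogroups stayed between 25 (without HMCR5) and 33 (without HCAR4) with each fish left out. It was 51 without subtraction of species means (11 of the 29 among them), 52 at r of at least 0.6 (TRY1 among them) and 16 at 0.8. Other anchors, added after the data were seen, gave 11 (elastase family member 1, 6 shared), 15 (chymotrypsinogen 1, 14 shared) and 13 (trypsinogen H2_3a4, 13 shared). Carboxypeptidase B gave 37 (24 shared) and alpha-amylase 29 (23 shared). With CPM taken without the members and named enzymes, also added later, the number was 35, all 29 among them.

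Counts of members called follow for *H. carbonarium* against *H. flavolineatum*, *H. carbonarium* against *H. macrostomum* and *H. flavolineatum* against *H. macrostomum*, in that order. At an adjusted p under 0.05 they were 9, 14 and 10 of 29, beside 2002, 1933 and 3257 of 8598 isogroups. DESeq2 gave 6, 6 and 3, beside 2345 of 25620, 2263 of 26755 and 4437 of 29024 isogroups. The first count was 2 without high-vitellogenin fish, beside 1056 of 8518 isogroups. The second was 3 with only the species compared in the fit (27 members then passed the filter), beside 795 of 6861. The third was 5 with no count filter, beside 5526 of 58532, and 15 with chymotrypsin B as a covariate, beside 1313 of 8598. With each fish left out the counts ran from 3 to 6, 3 to 9 and 2 to 6. All these counts include collectrin and isogroup14138 where they passed. With the chymotrypsin B covariate, isogroup16817 and isogroup4664 reversed between *H. carbonarium* and *H. macrostomum*, to -0.60 and -1.29, neither called, and isogroup34114 lost its call there (from 2.99 to 0.91, edgeR adjusted p = 0.36). Members were chosen for following chymotrypsin B, which itself differs between species, so the rule sets the direction in which this covariate moves them, and its calls show nothing further about them. The cause of the other changes was not tested. Isogroup34114 kept its direction where called, under every alternative that tested it. Collectrin's direction is not read as a result.

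The labels' fish numbers recur in the species and are not said to mark anything shared. Of 25 same-numbered pairs across species, 1 had a correlation of deviations over 0.1, and 2 of 29 fish correlated best with their own number. That check does not reach an order of the numbers inside a species. In each species the highest member share stood at a lower number (HCAR1, HFL5, HMCR2) than the lowest (HCAR5, HFL12, HMCR5). What goes with the numbers was not tested. With the fish number as a replicate block, 3 members were called in the first contrast (1 higher, 2 lower), beside 720 of 8598 isogroups. The second also had 3 (1 higher, 2 lower), beside 914. The third had 9 (8 higher, 1 lower in *H. flavolineatum*), beside 1639, against 0 higher and 2 lower without the block. With it the members' median log2 fold change in the first was -0.36. HFL12 to HFL18 (1.71% to 9.40%) share no number with another fish, so the block takes them out of the contrasts. Its changes include their loss. Isogroup34114 lost its call in the third contrast with the block, in the same direction. Collectrin, with 5 counts in *H. carbonarium*, and members below 20 CPM are limited by depth.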
